A study of Mus musculus with 12 samples.

Results

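The genes described here are 10 targets of canonical WNT signalling: the caudal-type homeobox genes Cdx1, Cdx2 and Cdx4, the TCF/LEF genes Tcf7 and Lef1, the feedback inhibitors Axin2, Nkd1 and Notum, and the transcription factor genes Sp5 and Myc. They were chosen by name, with earlier results of these data known. Matching Ensembl identifiers to symbols found all 10 of them among 52636 genes. The study knocked down circKat6b-e2, a circular RNA, with an shRNA in the E14 line of mouse embryonic stem cells (ESCs), and asked how the RNA bears on self-renewal and on differentiation. The 4 groups were knockdown (KD) embryoid bodies (EBs) at day 6, wild-type (WT) EBs at day 6, KD ESCs and WT ESCs, with 3 libraries each that the series calls biological replicates. EBs are aggregates in which ESCs differentiate. ESCs of both genotypes grew on gelatin with serum, LIF, 1 µM PD0325901, which inhibits MEK, and 3 µM CHIR99021, which inhibits GSK3. The labels give no medium for the EBs, so the stage and any change of inhibitors cannot be told apart in a comparison of EBs with ESCs. They also leave unstated if a control shRNA was used in WT cells, and if the KD line was clonal or pooled. Library RNA was selected with poly-T beads, which do not hold circular molecules, and the target of the shRNA was therefore not measured.

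In canonical WNT signalling, a WNT ligand stops a destruction complex built on APC, AXIN and GSK3 from marking β-catenin for degradation. β-catenin then enters the nucleus and binds TCF/LEF proteins at their target genes, and a GSK3 inhibitor acts at the same step without a ligand. Many targets are themselves parts of the pathway and dampen it, while the CDX factors pattern the posterior embryo and activate Hox genes, and CDX2 also specifies trophectoderm.

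Total counts lay between 25.4 and 37.8 M per library. All 12 libraries split by stage on a first principal component with 83% of the variance. WT ESC replicate 2 stood apart from the other ESC libraries: it lay at 73 on the first component of the ESC libraries, against -30.2 to 6.11 for the others. Its chi-square per gene against the other WT ESC libraries was 60.9 and 61.7, while the replicate pairs that did not involve it gave 4.96 to 9.57. Counts of calls that use the WT ESC group, for the members and the lists of other WNT genes, are therefore also given without this library. Naive ESC markers (Pou5f1, Sox2, Nanog, Zfp42, Esrrb, Klf2 and Tfcp2l1) summed to 301 to 332 CPM (counts scaled for library size) in KD EBs, 166 to 172 CPM in WT EBs, 4237 to 4326 CPM in KD ESCs and 3406 to 3979 CPM in WT ESCs. The libraries labelled ESC thus carried the markers of that state, and all 7 of these genes were lower in EBs than in ESCs in either genotype.

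Promoter sequences are shown for 4 of the genes, since the data bear on how far these targets moved together. CTTTGA is a form of the site that TCF/LEF proteins bind, and forms without these letters were not searched for or marked. RefSeq windows of GRCm38.p6, from 250 bases before to 50 bases after a start site, were matched by symbol for 7 of the 10 genes, in 11 windows; Cdx1, Myc and Notum were not matched. Both strands were searched for CTTTGA, which reads TCAAAG on the opposite strand, and for the longer CTTTGAT, which contains it and reads ATCAAAG there. Of all 32851 windows in the RefSeq table, 16.0% held the shorter and 3.73% the longer string. The Sp5 window held CTTTGA at -204 and -104 from the start site, and the second match was the longer string. A Lef1 window at a start site inside the gene held the other strand's letters at -180 and -120. The other windows, those of Cdx2, Cdx4, Axin2, Tcf7, Nkd1 and the further Lef1 starts, held neither string, which says only that these letters are not in these windows. The Nkd1 window, from 88527383 to 88527682, also lay inside its gene, so the sequence at the annotated start, 88521354, was not searched. The 250 bases before the start site are printed 5′ to 3′ on the gene's strand, with the matched letters in capitals: Sp5 and Lef1 as the genes with matches, Cdx2 and Axin2 for comparison as genes without one.
Sp5 promoter, chr2:70474673-70474922, plus strand: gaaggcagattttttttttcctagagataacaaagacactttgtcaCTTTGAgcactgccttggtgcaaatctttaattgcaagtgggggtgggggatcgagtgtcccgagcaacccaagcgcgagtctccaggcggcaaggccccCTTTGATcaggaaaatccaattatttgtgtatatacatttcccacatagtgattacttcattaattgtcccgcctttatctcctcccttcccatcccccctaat
Lef1 promoter, internal start, chr3:131156044-131156293, plus strand: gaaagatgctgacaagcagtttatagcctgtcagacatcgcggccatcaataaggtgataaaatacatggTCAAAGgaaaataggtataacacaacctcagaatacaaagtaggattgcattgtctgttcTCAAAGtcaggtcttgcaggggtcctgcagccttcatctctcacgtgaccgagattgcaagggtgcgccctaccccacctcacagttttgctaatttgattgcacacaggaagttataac
Cdx2 promoter, chr5:147307250-147307499, minus strand: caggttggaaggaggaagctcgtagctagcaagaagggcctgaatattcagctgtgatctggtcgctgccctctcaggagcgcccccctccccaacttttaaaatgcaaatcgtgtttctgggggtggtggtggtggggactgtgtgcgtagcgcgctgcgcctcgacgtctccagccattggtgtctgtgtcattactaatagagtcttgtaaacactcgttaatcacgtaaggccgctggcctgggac
Axin2 promoter, chr11:108920099-108920348, plus strand: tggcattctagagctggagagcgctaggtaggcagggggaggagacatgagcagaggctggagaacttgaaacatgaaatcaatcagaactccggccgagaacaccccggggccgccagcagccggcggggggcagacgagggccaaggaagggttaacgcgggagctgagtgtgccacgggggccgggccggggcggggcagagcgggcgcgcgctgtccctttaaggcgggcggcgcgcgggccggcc

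The 10 genes did not move as a block. In day 6 EBs, Cdx2, Sp5, Myc, Nkd1, Lef1 and Axin2 were higher in KD than in WT libraries while Tcf7 and Notum were lower, and in ESCs Sp5 and Myc were the members past the threshold, both higher in KD. Between stages, Lef1, Cdx2, Nkd1, Axin2, Myc and Tcf7 were higher in EBs and Cdx1 and Notum lower, in KD and in WT cells alike. Levels are counts-per-million values (CPM) on a common scale of all 12 libraries, replicate 1 to 3 in order within a group, and differences between groups are log2 fold changes, of KD over WT or of EB over ESC, with their standard error (SE). Adjusted p values are those of edgeR's quasi-likelihood test with Benjamini-Hochberg adjustment over all tested genes, called under 0.05. In bulk RNA, fewer cells that express a gene and less RNA per cell cannot be told apart, and this holds for every value below.

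**Figure D1:**
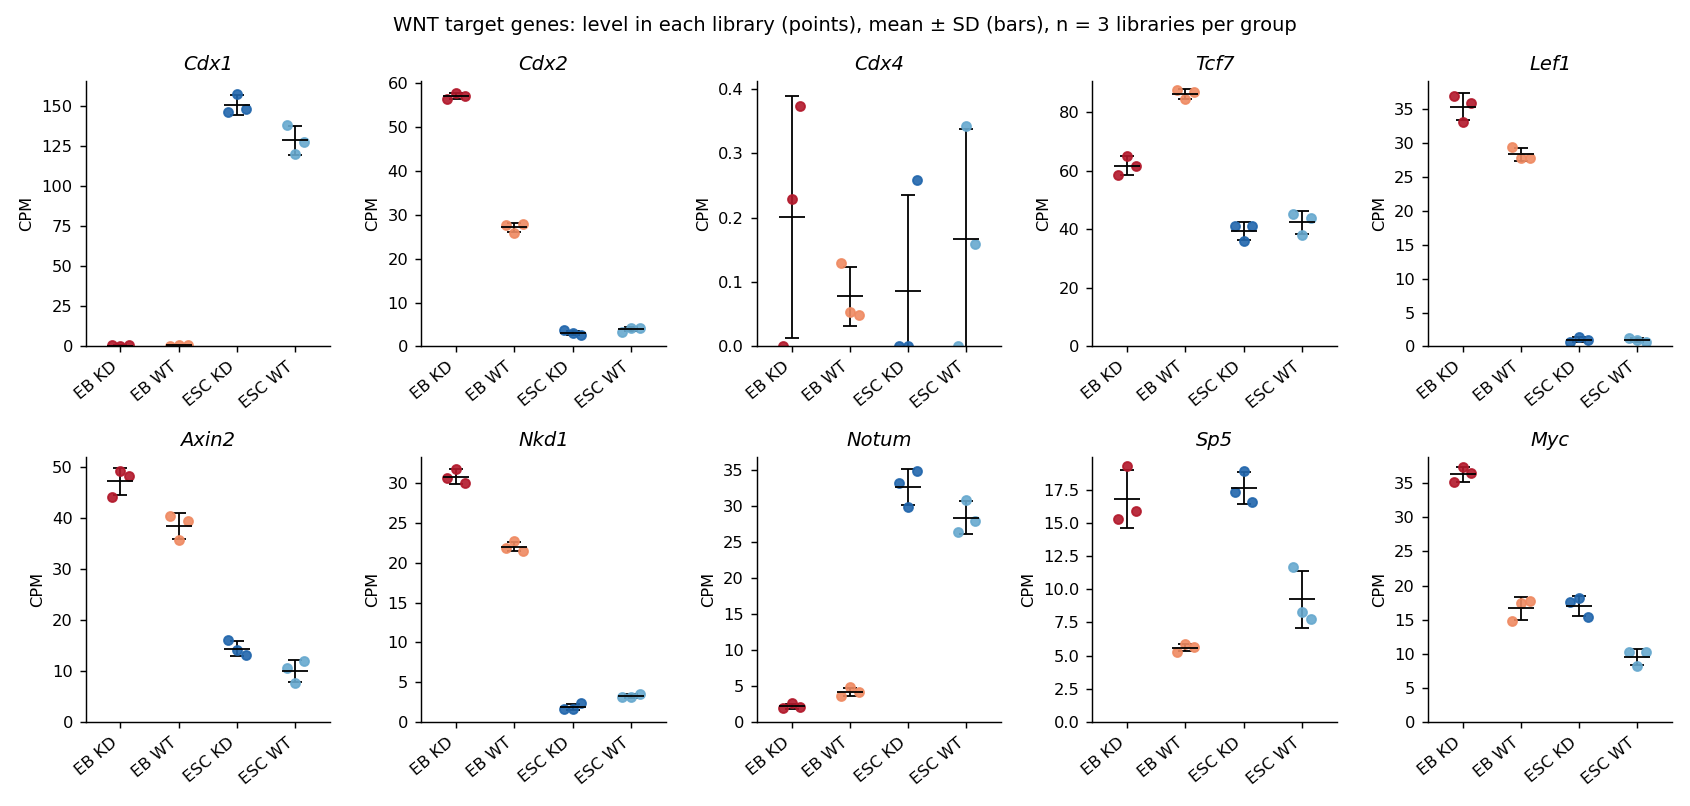
Level of each of the 10 WNT target genes in CPM (vertical axes, scaled per gene), with the points as libraries, the bars as mean ± SD, and n = 3 libraries in each of the groups EB KD, EB WT, ESC KD and ESC WT. Cdx1 and Notum are high in ESCs, Cdx2, Lef1 and Nkd1 are high in EBs, and Sp5 and Myc lie higher in KD than in WT libraries at both stages; Cdx4 reaches at most 14 counts in a library and its error bars are cut at 0.

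Cdx1 (chromosome 18, 61018862 to 61036199, GRCm38) encodes a homeodomain factor that patterns the posterior axis and the gut. It had 0.592, 0.287 and 0.747 CPM in KD EBs and 0.417, 0.593 and 0.773 CPM in WT EBs, against 146, 158 and 148 CPM in KD ESCs and 138, 120 and 128 CPM in WT ESCs. Every ESC library was thus far above every EB library, and in EBs the KD and WT ranges overlapped. Cdx1 was lower in EBs than in ESCs by a log2 fold change of -8.10 in KD (SE 0.17, edgeR adjusted p = 2.29e-15) and -7.74 in WT cells (SE 0.17, edgeR adjusted p = 2.84e-15), that is 274-fold and 214-fold. The KD value in ESCs was 0.24 (SE 0.08) and did not pass the test (edgeR adjusted p = 0.129), although the KD and WT ranges did not overlap. In EBs it was -0.19 (SE 0.49, edgeR adjusted p = 0.77). Without WT ESC replicate 2 the KD value in ESCs was 0.19 and passed (edgeR adjusted p = 0.0239).

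Cdx2 (chromosome 5, 147300805 to 147307270), whose product specifies trophectoderm and later the posterior body and intestine, showed the opposite stage pattern. It had 56.4, 57.7 and 57.2 CPM in KD EBs against 27.7, 25.9 and 27.9 CPM in WT EBs, with no overlap and an SD of 0.648 CPM in KD and 1.06 CPM in WT libraries. In ESCs it had 3.64, 3.07 and 2.69 CPM in KD and 3.36, 4.32 and 4.27 CPM in WT libraries, which overlapped. Cdx2 was 2.02-fold higher in KD than in WT EBs (log2 1.01, SE 0.06, edgeR adjusted p = 3.21e-15), and the KD value in ESCs was -0.34 (SE 0.26, edgeR adjusted p = 0.478). It was 18.3-fold higher in EBs than in ESCs of the KD (log2 4.19, SE 0.13, edgeR adjusted p = 9.56e-14) and 6.86-fold in WT cells (log2 2.78, SE 0.12, edgeR adjusted p = 5.73e-12).

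Cdx2 serves in more than 1 tissue, so marker levels are given beside it. In EBs, tailbud and posterior progenitor markers summed to 121 to 126 CPM in KD and 73.8 to 78.0 CPM in WT libraries. Cyp26a1 made up 58.4 to 65.8 CPM of the KD sums and 30.9 to 31.6 CPM of the WT sums. The other 9 genes added up to 59.8 to 62.2 CPM with the knockdown and 42.8 to 47.1 CPM without it. Nkx1-2 averaged 25.6 CPM in KD against 3.27 CPM in WT EBs. Fgf8 went the other way, at 6.31 against 18.7 CPM. The higher KD sum thus lay mainly in Cyp26a1 and Nkx1-2. Of the 8 tested genes of this list, 4 were higher (T, Nkx1-2, Evx1 and Cyp26a1) and 2 lower (Wnt8a at log2 -0.60 and Fgf8 at -1.63). Msgn1 was not tested, at 0 in all WT EB libraries and at most 0.08 CPM in KD EBs. In this comparison 28% of all tested genes were called higher and 27.7% lower, shares that stand beside each marker count given here. Trophoblast markers summed to 621 to 635 CPM in KD and 870 to 882 CPM in WT EBs, most of it Hand1, which is also expressed in mesoderm. The sum of the other 8 genes was 115 to 124 CPM in KD and 105 to 109 CPM in WT EBs, the opposite direction. Of the 8 tested genes 2 were higher (Eomes and Plac1) and 6 lower, and none of the 9 was at 0 in a whole group of EBs. Elf5 was not tested, however, at no more than 0.287 CPM in KD EBs and 0.0966 CPM in WT EBs. Intestinal markers, which include Cdx1 and Cdx2 themselves, summed to 68.3 to 71.5 CPM in KD and 44.2 to 50.2 CPM in WT EBs. Without Cdx2 that sum turned round, at 11.3 to 13.8 CPM in KD and 18.2 to 22.4 CPM in WT EBs. Of the 7 genes 4 were tested, with Cdx2 higher, Vil1 lower in KD (log2 -0.92), and Cdx1 and Lgals4 not called. Cdh17 was not tested, at 0 in WT EBs and at most 0.0574 CPM in KD EBs. Fabp1 and Fabp2 were not tested either, with maxima of 0.161 and 0.107 CPM in KD EBs and 0.0539 and 0.0483 CPM in WT EBs. The part of these cell types in the Cdx2 result was not tested.

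Cdx4 (chromosome X, 103321398 to 103330592), which acts with the other CDX genes on posterior Hox genes and blood formation, was barely detected. It had 0, 8 and 14 counts in KD EBs, 5, 2 and 2 counts in WT EBs, 0, 0 and 7 counts in KD ESCs and 0, 8 and 4 counts in WT ESCs. The groups overlapped and the gene did not pass the filter on low counts, so it has no test. A count of 0 allows up to 3 fragments, which is 6 counts where both mates are counted, or 0.159 to 0.236 CPM of the library total in the 4 libraries at 0, counting error only.

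Taken per kilobase of exon, the levels of the 3 CDX genes can be added. Their sum was 25.7 ± 0.333 CPM per kilobase in KD EBs and 12.4 ± 0.494 in WT EBs, against 87.5 ± 3.44 in KD ESCs and 75.4 ± 4.81 in WT ESCs (SD, n = 3 each). Cdx2 supplied 98.4% of that sum in KD EBs and 96.9% in WT EBs, whereas Cdx1 supplied 98.4% in KD ESCs and 97.5% in WT ESCs. The CDX transcripts of ESCs were thus almost wholly Cdx1 and those of EBs almost wholly Cdx2, in KD and WT cells alike.

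**Figure D2:**
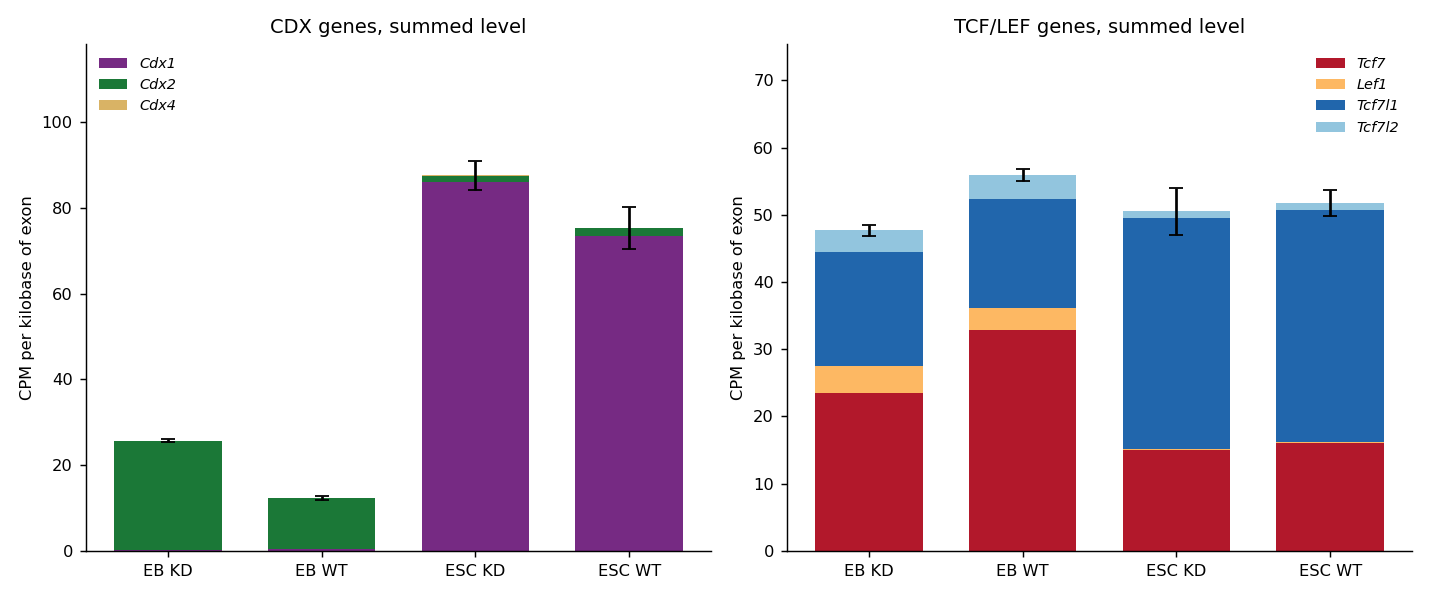
Summed level of the CDX genes (left) and of the TCF/LEF genes (right) in CPM per kilobase of exon, as stacked bars of group means with the SD of the sum (n = 3 libraries a group). The CDX bar of KD EBs reaches 25.7 and that of WT EBs 12.4, nearly all of it Cdx2, while in ESCs nearly all is Cdx1; in the TCF/LEF bars, Tcf7 and Lef1 take a larger part in EBs and Tcf7l1 in ESCs.

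Tcf7 (chromosome 11, 52252371 to 52283014) encodes TCF1, a DNA-binding partner of β-catenin that is itself a WNT target. It had 58.5, 65.1 and 61.6 CPM in KD EBs against 87.7, 84.5 and 86.9 CPM in WT EBs, and 41.2, 36.0 and 41.1 CPM in KD ESCs against 45.1, 37.9 and 43.9 CPM in WT ESCs. The KD libraries were the lower ones in EBs, with a wide gap, and the groups overlapped in ESCs. Tcf7 was lower in KD EBs by a log2 fold change of -0.55 (SE 0.05, edgeR adjusted p = 1.82e-11), against a KD value of -0.09 in ESCs (SE 0.11, edgeR adjusted p = 0.636). It was higher in EBs than in ESCs by 0.65 in KD (SE 0.08, edgeR adjusted p = 2.28e-06) and 1.03 in WT cells (SE 0.08, edgeR adjusted p = 7.66e-09).

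Lef1 (chromosome 3, 131110471 to 131224356), which marks cells with active WNT signalling in the primitive streak and presomitic mesoderm, was low in ESCs. Its levels were 36.9, 33.1 and 36.0 CPM in KD EBs and 29.4, 27.8 and 27.8 CPM in WT EBs, against 0.710, 1.44 and 0.884 CPM in KD ESCs and 1.31, 0.897 and 0.718 CPM in WT ESCs. The EB groups did not overlap and the ESC groups did. Lef1 was higher in KD EBs by 0.26 (SE 0.07, edgeR adjusted p = 0.00243), while the KD value in ESCs was 0.06 (SE 0.52, edgeR adjusted p = 0.965). It was 34.7-fold higher in EBs than in ESCs of the KD (log2 5.12, SE 0.20, edgeR adjusted p = 1.77e-12) and 28.4-fold in WT cells (log2 4.83, SE 0.20, edgeR adjusted p = 2.89e-12). An antisense gene model, Gm43352, shares 13.7% of its exon bases, and reads of the 2 strands were not told apart.

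The remaining TCF genes belong to the same family but were not chosen as targets. Tcf7l1 encodes TCF3, which represses pluripotency genes in ESCs, and was lower in EBs by -1.02 in KD (SE 0.06, edgeR adjusted p = 2.09e-10) and -1.08 in WT cells (SE 0.06, edgeR adjusted p = 1.05e-10). Its KD value in EBs was -0.01 (SE 0.05, edgeR adjusted p = 0.938). The sum of the 4 TCF/LEF genes was 47.7 ± 0.841 CPM per kilobase in KD EBs, 55.9 ± 0.88 in WT EBs, 50.5 ± 3.48 in KD ESCs and 51.7 ± 1.94 in WT ESCs (SD, n = 3 each). Within that sum Tcf7 held 49.2% in KD EBs, 58.9% in WT EBs, 29.8% in KD ESCs and 31.2% in WT ESCs. Lef1 held 8.43% in KD EBs and 5.77% in WT EBs, with ranges of 7.74% to 8.87% and 5.68% to 5.89% that did not overlap.

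Axin2 (chromosome 11, 108920349 to 108950783) encodes a scaffold of the destruction complex and is widely used as a reporter of the pathway. It had 44.1, 49.2 and 48.2 CPM in KD EBs against 40.3, 35.6 and 39.4 CPM in WT EBs, and 16.0, 14.1 and 13.2 CPM in KD ESCs against 10.6, 7.69 and 11.9 CPM in WT ESCs. The KD libraries were the higher ones at each stage, with no overlap. Axin2 was higher in KD EBs by 0.23 (SE 0.06, edgeR adjusted p = 0.00209), whereas 0.53 in ESCs did not pass (SE 0.19, edgeR adjusted p = 0.146). It was higher in EBs than in ESCs by 1.71 in KD (SE 0.13, edgeR adjusted p = 5.53e-09) and 1.93 in WT cells (SE 0.13, edgeR adjusted p = 1.47e-09).

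Nkd1 (chromosome 8, 88521354 to 88594884), whose product binds Dishevelled and restrains the pathway, had 30.7, 31.8 and 30.0 CPM in KD EBs against 21.9, 22.7 and 21.5 CPM in WT EBs. In ESCs it had 1.69, 1.60 and 2.36 CPM in KD against 3.14, 3.20 and 3.55 CPM in WT libraries. The KD libraries were the higher ones in EBs and the lower ones in ESCs, without overlap at either stage. The KD value passed in EBs (log2 0.42, SE 0.07, edgeR adjusted p = 1.37e-05) and not in ESCs (log2 -0.80, SE 0.30, edgeR adjusted p = 0.167). Nkd1 was 16.3-fold higher in EBs than in ESCs of the KD (log2 4.02, SE 0.15, edgeR adjusted p = 8.24e-13) and 6.68-fold in WT cells (log2 2.74, SE 0.14, edgeR adjusted p = 2.88e-11).

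Notum (chromosome 11, 120653788 to 120661175) encodes a secreted enzyme that strips the lipid from WNT ligands and so inactivates them. It had 1.91, 2.58 and 2.03 CPM in KD EBs against 3.65, 4.8 and 4.15 CPM in WT EBs, and 33.1, 29.8 and 34.8 CPM in KD ESCs against 26.3, 30.8 and 27.9 CPM in WT ESCs. The KD libraries were the lower ones in EBs, without overlap, and overlapped with WT in ESCs. Notum was lower in KD EBs by a log2 fold change of -1.01 (SE 0.21, edgeR adjusted p = 0.000172), against a KD value of 0.21 in ESCs (SE 0.11, edgeR adjusted p = 0.291). It was lower in EBs than in ESCs by -3.91 in KD (SE 0.15, edgeR adjusted p = 1.44e-12) and -2.75 in WT cells (SE 0.14, edgeR adjusted p = 3.51e-11), the stage direction opposite to that of Axin2 and Nkd1. The antisense gene Notumos shares 29.4% of its exon bases, and the counts did not separate strands.

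Sp5 (chromosome 2, 70474923 to 70477729) encodes a zinc-finger factor that binds and represses other WNT targets, and its promoter holds CTTTGA at 2 places, as printed above. It had 15.3, 19.3 and 15.9 CPM in KD EBs against 5.31, 5.85 and 5.65 CPM in WT EBs, and 17.3, 18.9 and 16.6 CPM in KD ESCs against 11.7, 8.29 and 7.74 CPM in WT ESCs. The KD libraries were higher at each stage without overlap, and the KD ranges of EBs and ESCs overlapped. Sp5 was 2.87-fold higher in KD EBs (log2 1.52, SE 0.12, edgeR adjusted p = 2.15e-12) and also higher in KD ESCs (log2 0.94, SE 0.18, edgeR adjusted p = 0.0454). In ESCs that call held in 2 of the 6 fits with a library left out, and was lost with library size only (edgeR adjusted p = 0.0901). In WT cells it was lower in EBs than in ESCs (log2 -0.73, SE 0.17, edgeR adjusted p = 0.000823), while in KD cells the stage value was -0.07 (SE 0.16, edgeR adjusted p = 0.7).

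Myc (chromosome 15, 61985391 to 61990374), a driver of growth and proliferation that many pathways besides WNT control, followed the same KD pattern. It had 35.1, 37.3 and 36.5 CPM in KD EBs against 14.7, 17.5 and 17.8 CPM in WT EBs, and 17.5, 18.2 and 15.4 CPM in KD ESCs against 10.3, 8.25 and 10.2 CPM in WT ESCs. The KD libraries were higher at each stage, with no overlap. Myc was 2.09-fold higher in KD EBs (log2 1.06, SE 0.08, edgeR adjusted p = 1.13e-12) and higher in KD ESCs (log2 0.84, SE 0.16, edgeR adjusted p = 0.0435). This ESC call, too, was made in 2 of the 6 fits with a library left out and not with library size only (edgeR adjusted p = 0.091). It was higher in EBs than in ESCs by 1.09 in KD (SE 0.12, edgeR adjusted p = 3.04e-07) and 0.80 in WT cells (SE 0.12, edgeR adjusted p = 1.58e-05).

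Set against all genes, the KD calls of the members differed in weight between stages. The members were chosen with earlier results of these data known, so their counts and medians beside those of all genes are a description. In EBs, 6 of the 9 tested members were higher and 2 lower, beside 55.7% of 17355 tested genes called (28% higher, 27.7% lower), and the members' median log2 fold change was 0.26 against 0.00241 for all tested genes. Most genes were called in this comparison, so the number of members called says little by itself. The small values of Axin2 and Lef1 did not pass when all 12 libraries were fitted together (edgeR adjusted p = 0.0799 and 0.111). In ESCs, 2 of 9 were higher and 0 lower, beside 0.603% of 16081 genes called (0.168% higher, 0.435% lower), with a median of 0.21 against 0.01. At an unadjusted p under 0.05, edgeR gave 5 of the 9 members in ESCs, beside 3447 of the 16081 tested genes. Without WT ESC replicate 2, 3 members passed, namely Sp5 (log2 0.86, edgeR adjusted p = 0.000424), Myc (0.74, edgeR adjusted p = 0.0012) and Cdx1, beside 9.35% of 16648 genes called (3.75% higher, 5.6% lower).

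**Figure D3:**
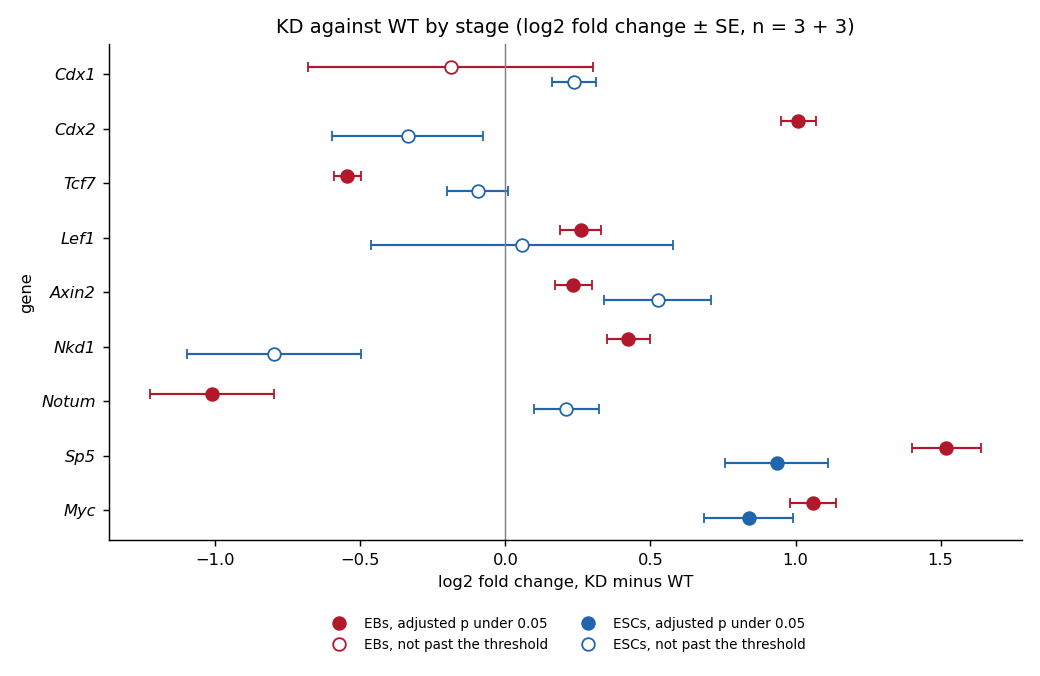
Log2 fold change of KD against WT (horizontal axis) for the 9 tested genes, in EBs (red) and in ESCs (blue), with the SE as bars, 3 KD and 3 WT libraries at each stage, and filled points for an edgeR adjusted p under 0.05. Cdx2, Sp5 and Myc lie at 1.01 to 1.52 in EBs and Notum at -1.01, whereas in ESCs Sp5 and Myc alone carry filled points.

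Naive ESC markers moved in the same direction as most members in EBs. As given above, their sum was 301 to 332 CPM in KD EBs and 166 to 172 CPM in WT EBs, with 6 of 7 genes higher, 0 lower and none at 0. Of all tested genes, 28% were called higher and 27.7% lower, shares that stand beside the counts of each marker list here. The largest were Esrrb (log2 2.64, SE 0.11, edgeR adjusted p = 3.34e-18) and Klf2 (2.61, SE 0.11, edgeR adjusted p = 5.49e-19), and Nanog stood at -0.10 (SE 0.06, edgeR adjusted p = 0.182). In KD against WT ESCs, 0 of these 7 genes were called, beside 0.603% of all tested genes. Without WT ESC replicate 2, 3 were higher there (Zfp42, Klf2 and Esrrb) and 0 lower, beside 3.75% and 5.6% of all tested genes. Of the members that are high in ESCs, Notum was lower in KD than in WT EBs. The Cdx1 ranges overlapped there, at 10 to 32 counts a library. The part of naive cells in the members' values was not tested. Neural markers summed to 43.5 to 46.6 CPM in KD and 20.1 to 21.9 CPM in WT EBs, with 2 of 4 tested genes higher and 1 lower. Nearly all of that sum was Ncam1 (log2 1.12) and Tubb3 (1.34), which were also present in ESCs, while the neural progenitor gene Sox1 was lower in KD EBs (-2.38), Pax6 lay under 0.5 CPM in each EB library and was not called, and Neurog2 was not tested. Blood and endothelial markers summed to 86.3 to 94.0 CPM in KD and 69.8 to 78.8 CPM in WT EBs, with 2 of 5 tested genes higher and 3 lower. Hba-x and Hbb-bh1 were not tested, at 0 in WT EBs and at most 0.23 and 0.507 CPM in KD EBs. Without the receptor gene Kdr (67.2 to 69.9 CPM in KD and 30.1 to 33.3 CPM in WT EBs) the sum turned round, at 19.1 to 24.2 CPM in KD and 39.8 to 45.5 CPM in WT EBs. Most of that rest was Pecam1 (log2 -1.15), which was higher in ESCs, at a mean of 96.1 CPM in KD and 96.9 CPM in WT. Gata2 (-1.04) and the rarely counted Gata1 (-1.93) were also lower. Tal1, a blood transcription factor gene, was higher (2.19), at 1.09 to 2.53 CPM in KD and 0.378 to 0.417 CPM in WT EBs. The part of these cell types in the members' changes was not tested.

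Most members differed between stages, as did most genes. In KD cells 6 of 9 tested members were higher in EBs and 2 lower, and in WT cells 6 were higher and 3 lower, beside 79.8% of 18975 genes called in each genotype (42.5% higher and 37.3% lower in each), so little is read from the number called. The members' median log2 fold change was 1.09 in KD and 1.03 in WT cells, against 0.15 and 0.17 for all tested genes. Sp5 was the member called in WT and not in KD cells. Without WT ESC replicate 2, all 9 members were still called in WT cells, beside 77.2% of 19729 genes, and with library size only the WT value of Sp5 was -0.20 and did not pass (edgeR adjusted p = 0.312).

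**Figure D4:**
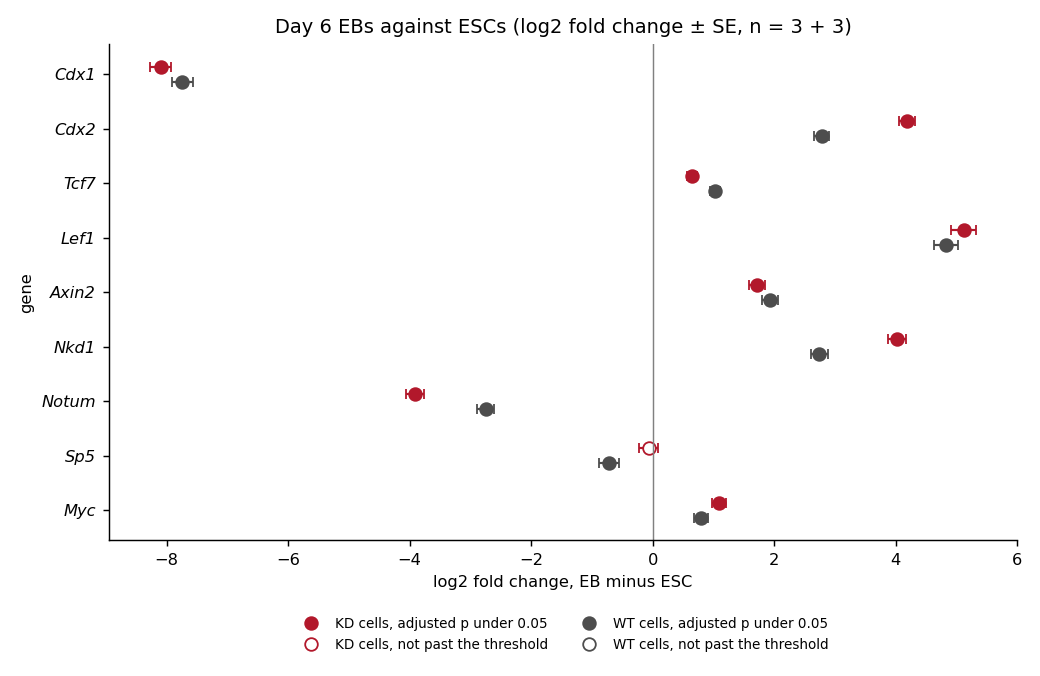
Log2 fold change of day 6 EBs against ESCs (horizontal axis) for the 9 tested genes, in KD (red) and WT cells (grey), with the SE as bars, 3 EB and 3 ESC libraries in each genotype, and filled points for an edgeR adjusted p under 0.05. Cdx1 lies at -8.10 in KD and -7.74 in WT cells and Notum at -3.91 and -2.75, while Lef1, Cdx2 and Nkd1 lie farthest to the right.

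Whether the KD value depended on stage was tested directly, as the KD effect in EBs minus that in ESCs in a fit of all 12 libraries. It passed for 5 of 9 members, 3 upward and 2 downward, beside 23% of 18975 genes called (12.8% upward, 10.2% downward). The difference was 1.41 for Cdx2 (SE 0.18, edgeR adjusted p = 4.02e-05), 1.28 for Nkd1 (SE 0.20, edgeR adjusted p = 0.00031) and 0.66 for Sp5 (SE 0.23, edgeR adjusted p = 0.0484). It was -1.15 for Notum (SE 0.20, edgeR adjusted p = 0.000729) and -0.38 for Tcf7 (SE 0.12, edgeR adjusted p = 0.0255). It did not pass for Myc at 0.30 (SE 0.17, edgeR adjusted p = 0.227), Lef1 at 0.29 (SE 0.31, edgeR adjusted p = 0.55), Axin2 at -0.22 (SE 0.19, edgeR adjusted p = 0.434) or Cdx1 at -0.36 (SE 0.30, edgeR adjusted p = 0.442). Without WT ESC replicate 2 the count stayed at 5, beside 27.9% of 19729 genes. The Sp5 call was lost in 10 of the 12 fits without a library, with differences of 0.40 to 0.72 in those 10, and the Tcf7 call in 4.

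Other genes known as WNT targets changed in both directions in KD EBs. Of 16 listed, 15 were tested, with 6 higher and 5 lower and a median log2 fold change of -0.06, beside the 28% of all tested genes called higher and 27.7% called lower. Ccn4, a matricellular WNT target formerly called Wisp1, was higher (log2 1.63, SE 0.20, edgeR adjusted p = 4.28e-08), with 7.40, 5.31 and 5.47 CPM in KD EBs against 1.85, 2.1 and 1.69 CPM in WT EBs. The receptor gene Tnfrsf19, also known as Troy, was higher (1.10, SE 0.06, edgeR adjusted p = 8.03e-17), with 66.1, 68.9 and 66.1 CPM in KD EBs against 31.0, 29.9 and 29.2 CPM in WT EBs. T, the mesoderm factor brachyury (0.93), Lgr5, a receptor for R-spondins (0.72), Ccnd1, a D cyclin (0.42), and Znrf3, a ligase that removes WNT receptors (0.29), were higher as well. On the other side, Amotl2, an angiomotin, was lower (-1.15, SE 0.03, edgeR adjusted p = 3.96e-23), with 169, 177 and 177 CPM in KD EBs against 380, 364 and 368 CPM in WT EBs. Ascl2, a basic helix-loop-helix factor (-1.91), Nkd2, the paralogue of Nkd1 (-0.76), Rnf43, the paralogue of Znrf3 (-0.66), and the receptor Fzd7 (-0.30) were also lower. The paralogue pairs thus split: Nkd1 and Znrf3 were higher in KD EBs and Nkd2 and Rnf43 lower. In ESCs, 0 of 11 tested passed with edgeR. At an unadjusted p under 0.05, 4 of the 11 did, beside 3447 of all 16081 tested genes. Without WT ESC replicate 2, 1 of 13 passed the adjusted threshold (Fzd7, higher), beside 9.35% of all genes.

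**Figure D5:**
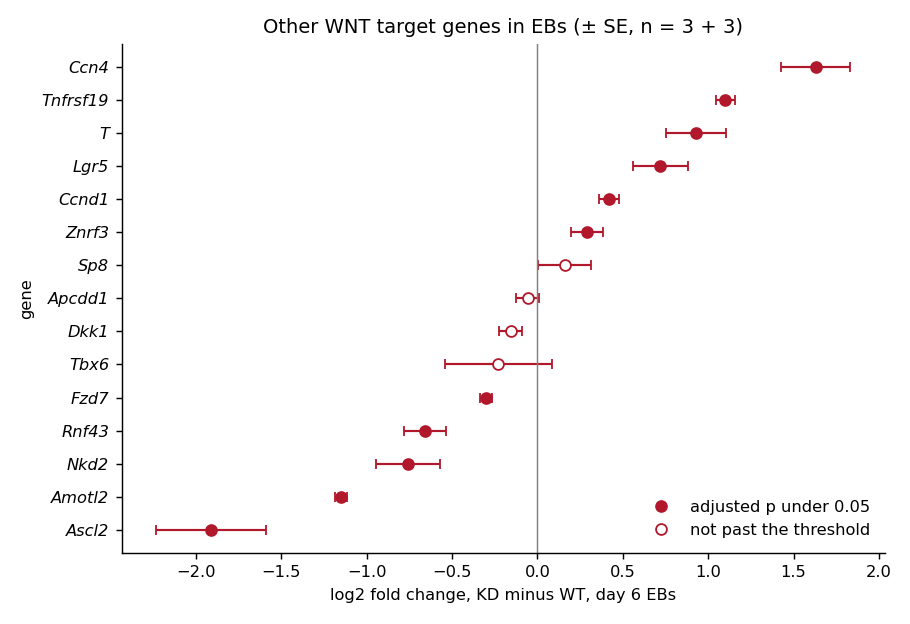
Log2 fold change of KD against WT in day 6 EBs (horizontal axis) for the 15 tested genes of the list of other WNT targets, with the SE as bars, 3 KD and 3 WT libraries, and filled points for an edgeR adjusted p under 0.05. The values run from -1.91 for Ascl2 to 1.63 for Ccn4, with 6 filled points to the right of 0 and 5 to the left.

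Genes of the signal path upstream of these targets also changed in both directions. Of the 14 genes of the destruction complex, Dishevelled and β-catenin, 4 were higher and 3 lower in KD EBs, with a median of 0.01, where 55.7% of all tested genes were called. Ctnnb1, which encodes β-catenin, had 809, 818 and 836 CPM in KD EBs and 803, 773 and 809 CPM in WT EBs, and its KD value there was -0.01 (SE 0.03, edgeR adjusted p = 0.708). The levels are scaled over 12 libraries and the fold change over the 6 EB libraries, so for a difference this small their signs can differ. In ESCs it had 195, 176 and 196 CPM in KD and 140, 44.6 and 151 CPM in WT libraries, the low one being replicate 2. Amer1, whose product binds APC, was higher in KD EBs (0.65, SE 0.04, edgeR adjusted p = 4.08e-14), Apc too (0.27, SE 0.04, edgeR adjusted p = 6.52e-07), and Dvl1 was lower (-0.28, SE 0.05, edgeR adjusted p = 3.2e-05). Of 11 TCF partners and cofactors, 6 were higher and 1 lower, with a median of 0.11, beside the same 55.7%. The corepressor Tle2 (1.41, SE 0.13, edgeR adjusted p = 4.65e-11), the β-catenin cofactor Pygo1 (0.75, SE 0.15, edgeR adjusted p = 9.07e-05) and the corepressor Tle4 (0.75, SE 0.09, edgeR adjusted p = 5.21e-08) had the largest changes among those with enough counts to be named. Tle2 had 13, 12.6 and 13.4 CPM in KD EBs against 4.79, 4.50 and 4.73 CPM in WT EBs, without overlap. In ESCs, 0 of the 14 and 0 of the 11 passed with edgeR. At an unadjusted p under 0.05, 1 and 2 did, beside 3447 of all 16081 tested genes. Without WT ESC replicate 2, 1 of the 14 (Ctnnb1, higher) and 0 of the 11 passed the adjusted threshold, beside 9.35% of all genes.

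Between stages most of these genes were higher in EBs, where 79.8% of all tested genes were called in each genotype (42.5% higher, 37.3% lower). Of the other WNT targets, 11 of 15 tested were higher and 2 lower in EBs than in ESCs of the KD, and 12 higher and 2 lower in WT cells, with medians of 2.28 and 2.76. Dkk1, a secreted inhibitor of the WNT coreceptor, was the largest of those with enough counts to be named, at 6.94 in KD (SE 0.30, edgeR adjusted p = 4.87e-12) and 6.17 in WT cells (SE 0.27, edgeR adjusted p = 5.52e-12). Ascl2 was lower by -3.65 in KD and -2.35 in WT cells, and Ccnd1 by -1.05 and -1.73. In the destruction complex list, 9 of 14 were higher and 2 lower in KD cells and 10 higher and 2 lower in WT cells. Tnks, a tankyrase that marks AXIN for degradation, was higher by 3.65 in KD (SE 0.11, edgeR adjusted p = 1.32e-13) and 3.74 in WT cells (SE 0.11, edgeR adjusted p = 1.04e-13). The TCF partners had 9 of 11 higher and 2 lower in KD cells and 6 higher and 3 lower in WT cells, led by Bcl9l at 2.61 and 2.50. Without WT ESC replicate 2 the 3 lists had the same counts in WT cells.

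Per kilobase of exon, the order of the members changed between groups. In KD EBs it ran Cdx2 (25.3 CPM per kilobase), Tcf7 (23.5), Myc (13.4), Axin2 (8.56), Sp5 (8), Nkd1 (6.76), Lef1 (4.02), Notum (0.902), Cdx1 (0.310) and Cdx4 (0.102), and the ranges of Axin2 and Sp5 and of Cdx1 and Cdx4 overlapped. In WT EBs, Tcf7 led at 32.9, ahead of Cdx2 at 12, and Sp5 stood lower, in the place after Lef1, at 2.67. The ranges of Axin2 (6.98) and Myc (6.13) overlapped there. In ESCs, Cdx1 led in KD (86.1) and WT (73.5), followed by Tcf7 (15.0 and 16.1) and Notum (13.5 and 11.8), while Nkd1, Lef1 and Cdx4 were last. The ranges of Tcf7 and Notum overlapped in KD ESCs, those of Sp5 and Myc and of Axin2 and Cdx2 in WT ESCs, and those of Lef1 and Cdx4 in both.

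The genes whose pattern over the 12 libraries lay closest to a member are given as a description, by the root mean square difference of mean-centred log2 CPM among 11083 genes. For Cdx2 they were Igfbp4 (0.20), Chd3 (0.20), Sh3kbp1 (0.22), Hipk3 (0.23) and Rhobtb1 (0.23). For Axin2 they were Adgra3 (0.10), Golga4 (0.12), Smc2 (0.12), Ankrd11 (0.12) and Top1 (0.13), and for Lef1 they included Galnt7 (0.21), Shroom4 (0.29), Tmem200b (0.31) and Hivep2 (0.31). For Cdx4 the nearest gene, Snrnp40, lay at 0.86, and with at most 14 counts a library nothing is read from it.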

How the data were processed

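Poly-T selected RNA of 12 libraries was sequenced, and the authors deposited raw counts per gene, in 1 table for each stage. Alignment to mm10 used HISAT2 2.1.0 and counting featureCounts 2.0.3, per the submitters' processing notes, which also name DESeq2 1.18.1 without a role. Per the file headers, the counts used the Ensembl gene annotation of GRCm38, paired reads with both ends mapped, and no strand option. Low counts (1 to 10) were even in 61.7% to 68.7% of cases, so mates entered singly and a fragment usually counts more than once.

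All genes were fitted with edgeR 4.0.16 in R 4.3.3 (TMM, filterByExpr at a count of 10 and a total of 15, quasi-likelihood F-test with robust dispersions) and adjusted over all tested genes. KD against WT was fitted within a stage on 6 libraries. Stage comparisons and the stage difference of the KD effect used all 12. The SE was taken from the F statistic as |log2 fold change| over its square root. CPM used TMM over 12 libraries, levels per kilobase the deposited exon lengths, and the log2 CPM of the pattern search a prior count of 2. The fits were tested on simulated data first. The simulation gave all genes and libraries the same dispersion and held no library that stood apart, so it does not cover the ESC data. Groups came from the sample titles and treatments.

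Alternatives were library size only, DESeq2 1.42.0, no filter, a replicate block, all 12 libraries in the fit, and each library left out. Deviations of same-numbered libraries correlated at -0.0264 to 0.0372, which gives no sign of pairing by replicate number but cannot exclude it. The members and lists were chosen with earlier results of these data known, and the genes named from a list are at most the 3 called genes with the largest absolute log2 fold change and a mean logCPM of at least 2, plus those in a figure. Ctnnb1, Fzd7 in ESCs and the genes named from the marker lists fall outside that rule and were named after their values were seen. The counts over lists without WT ESC replicate 2 and the marker sums without a list's highest gene in EBs were also added after seeing the data. Msgn1 was not tested, and 1 gene of the pattern search is not reported here. p-values cover the spread between these libraries, intervals and floors counting error, and PCR copies count as molecules.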

Additional observations from a re-analysis of the deposited data

Results flagged for a closer look

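The test of the difference itself, in the fit of all 12 libraries, called 5 of the 9 tested members, beside 23% of 18975 genes. For these 5 the KD effect in EBs differed from that in ESCs. The difference in log2 fold change was 1.41 for Cdx2, 1.28 for Nkd1, 0.658 for Sp5, -0.382 for Tcf7 and -1.15 for Notum. The Sp5 call was lost in 10 of the 12 fits without a library, with library size only and with the replicate block, and the Tcf7 call in 4 of the 12. The Nkd1 libraries of the KD lay above all WT libraries in EBs and below all of them in ESCs. Cdx2 and Notum were called in EBs and their KD values in ESCs, which had the opposite sign, did not pass.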

How the results depend on the processing

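Of 629 alternative values of 45 member results, 588 kept their direction and their side of the threshold, 29 lost the call, 3 gained it and 9 changed sign. The 9 belong to values that had not passed: Tcf7 in ESCs with library size only (0.00999), Sp5 in EBs against ESCs of the KD with library size only (0.302), and 7 with a library left out. With a library left out, Lef1 in ESCs ran from -0.281 to 0.33 and its stage difference from -0.0609 to 0.598, Cdx1 in EBs from -0.482 to 0.111, and Sp5 in EBs against ESCs of the KD from -0.175 to 0.00383. The cause was not tested.

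In ESCs, the members called numbered 2, against 0 with library size only, 4 with all 12 libraries in the fit, and 0 to 3 with a library left out. The 4 were Sp5, Myc, Axin2 (0.52, edgeR adjusted p = 0.0296) and Nkd1 (-0.80, edgeR adjusted p = 0.0105). All genes called in ESCs numbered 97, against 36 with library size only, 909 with DESeq2, 1769 without the filter, 1999 with all 12 libraries and 8 to 1557 with a library left out, the highest without WT ESC replicate 2. Of the calls, 27.8% were higher, against 39% without the filter, 48.5% with all 12 libraries and 40.1% without WT ESC replicate 2. The members with a stage difference numbered 5, against 3 to 5 with a library left out. With all 12 libraries in the fit, Axin2 (0.29, edgeR adjusted p = 0.0799) and Lef1 (0.32, edgeR adjusted p = 0.111) lost their calls in EBs.

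Library size only shifted the median log2 fold change of all genes to 0.704 in WT and 0.518 in KD cells for EBs against ESCs, 0.123 for KD in ESCs and -0.131 for the stage difference, so stage directions are relative to these. It moved the higher share of calls to 65.2% (53.3% with TMM) for EBs against ESCs in WT cells and 35.3% (55.6%) for the stage difference, and ended the Sp5 call in WT cells (-0.20, edgeR adjusted p = 0.312).

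The main fits did not treat replicate numbers as pairs. With a replicate block, 266 of 16081 genes were called in ESCs, against 97 in the main fit. In EBs 9655 of 17355 were called, against 9667. The members called were 2 in ESCs, 8 in EBs, and 9 and 8 between stages in WT and KD cells. For the stage difference they were 4, where Sp5 lost the call (0.65, edgeR adjusted p = 0.0667). Low counts limit Cdx4, Cdx1 in EBs and Lef1 in ESCs.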
